A study of Mus musculus with 6 samples.

Results

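The interferon-stimulated antiviral genes described here are 43 mouse genes named by symbol: sensors of viral nucleic acid, effectors that act on viral RNA or on viral entry and release, and the enzymes and adaptors around them. Genes of antigen presentation, most interferon-inducible GTPases and the interferon regulatory factors were not included. They were chosen by name and not by a threshold on their values, with earlier results of these data known, and each was read by the probe set (a group of short oligonucleotides for 1 transcript) with the highest mean among those assigned to that gene alone. Of the 43, 40 had such a probe set, out of 18193 genes on the array. Isg15 had only a probe set shared with Gm9706, and none was assigned to Ifi44 or Lgals3bp2, so these 3 were not analysed here.

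Retinas came from mice of the BALB/c strain, which is albino and sensitive to strong light. Both groups had spent 1 week in darkness. The light damaged group (3 arrays) was then kept for 6 h under white fluorescent lamps at 6000 lux and collected 24 h afterwards, and the dark adapted group (3 arrays) received no such light. No collection time is recorded here for the dark adapted group. The sources used here do not give the animals' age or how many retinas went into an array. Nor do they say whether the replicates of a group were separate animals. A p-value here therefore reflects the spread among these 6 arrays, which may be technical.

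Interferons are secreted proteins released when cells sense viral nucleic acid or, in some settings, their own. They bind receptors that activate JAK kinases, and these phosphorylate STAT proteins that enter the nucleus with the partner protein IRF9 and switch on a large set of target genes at a DNA element called the interferon-stimulated response element. In the retina, microglia and Müller glia are known to respond to interferon.

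After light damage a subset of these genes rose together and none fell. Of the 40 measured members 15 were higher in light damaged retinas at a limma adjusted p under 0.05, 25 did not pass and 0 were lower. Over all genes 2.01% passed, 1.74% higher and 0.269% lower, against 37.5% of the members. The rises were led by Ifitm3 (5.06-fold), which blocks virus entry at endosomes, the oligoadenylate synthetase-like gene Oasl2 (4.56-fold), Ifitm1 (4.36-fold), Ifit1 (3.94-fold), which binds foreign RNA caps, and the ADP-ribosyltransferase gene Parp12 (3.85-fold). At least 2-fold rises made up 13 of the 15, and over all genes 191 of the 316 called higher. The median change of the 40 members was 0.60 on the log2 scale, a 1.51-fold rise, and that of all genes 0.03. Positive changes numbered 34 of 40, and 10378 of 18193 over all genes.

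The titles number the arrays 1 to 3 in each group, and arrays of the same number deviated together, so a fit with the replicate number as a block was made as well. With the block 24 members were higher and 0 lower (60.0%, against 6.73% of all genes higher and 2.13% lower). The 9 members gained were Rtp4, Ifi35, Ddx58, Dtx3l, Eif2ak2, Rsad2, Ifi27, Trim21 and Mx2, and the 15 were kept. In 24 of the 40 members each of the 3 light damaged values lay above all 3 dark adapted ones, which over all genes held for 11.9%. Without the arrays numbered 3, which leaves 2 a group, 7 members passed: Rtp4 and 6 of the 15. Over all 18193 genes 65 passed in that fit, 55 of them higher. The members that lost the call were Ifit1, Ifit3, Ifitm2, Bst2, Ifih1, Parp9, Parp14, Trim25 and Samd9l.

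**Figure D1:**
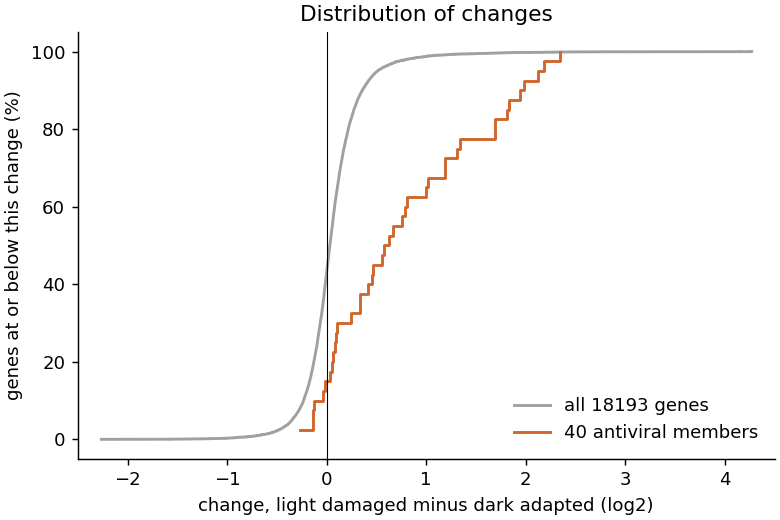
Cumulative share of genes (vertical axis, %) by log2 change of light damaged minus dark adapted retinas (horizontal axis), for all 18193 genes in grey and the 40 measured members in orange. The curve of the members lies to the right of that of all genes, with medians of 0.60 and 0.03, and its steps run from -0.27 to 2.34.

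The promoters of the members were searched for the core of the interferon-stimulated response element, here GAAA, any 2 bases, then GAAA, on both strands. The windows are RefSeq's, of assembly GRCm38.p6, and span 250 bases before to 50 after each start, and 32 of the 43 members matched by symbol. At least 1 match was held by 14 of the 32 (43.8%) and by 3.99% of the 27025 genes with such windows. The gamma-activated site TTCNNNGAA was held by 8 of the 32 (25.0%) and by 9.55% of all. The members were named as interferon-stimulated genes, so this share is a description and not a test. Among members that rose 6 of 12 held the response element, and among the measured members that did not pass 7 of 18 did.

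The sequences of the 6 that rose are shown so that the spacing can be compared. Each is written 5′ to 3′ on the gene's own strand with the matched bases in capitals, where a match on the other strand reads TTTC, 2 bases, TTTC.
Ifit1, chr19:34640773-34640825, plus strand: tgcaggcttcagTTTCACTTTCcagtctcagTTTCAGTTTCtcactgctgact
Ifit3, chr19:34583361-34583428, plus strand: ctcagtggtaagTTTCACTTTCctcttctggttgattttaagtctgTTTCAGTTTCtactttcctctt
Ifitm2, chr7:140955986-140956019, minus strand: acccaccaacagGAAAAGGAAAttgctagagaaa
Ifitm3, chr7:141010704-141010754, minus strand: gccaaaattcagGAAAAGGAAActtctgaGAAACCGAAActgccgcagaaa
Bst2, chr8:71537575-71537614, minus strand: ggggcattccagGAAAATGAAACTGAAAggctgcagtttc
Ifih1, chr2:62646206-62646235, minus strand: gagaagagaatcGAAACAGAAAccgatctg

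Counted from the first transcribed base, the matches began at -104 and -85 in Ifit1, at -130 and -124 in Bst2, where they overlap in a triple repeat, and at 3 and 20 in Ifitm3. The full window of Ifit1 is printed to show where the pair of matches stands within it.
Ifit1, chr19:34640639-34640938, plus strand: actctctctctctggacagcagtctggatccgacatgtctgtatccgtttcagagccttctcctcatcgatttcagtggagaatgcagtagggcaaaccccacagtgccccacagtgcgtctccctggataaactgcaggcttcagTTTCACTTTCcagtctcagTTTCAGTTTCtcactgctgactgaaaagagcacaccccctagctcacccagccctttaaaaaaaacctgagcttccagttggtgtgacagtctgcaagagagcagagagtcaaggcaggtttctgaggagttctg

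The same element stood in 7 members that did not pass without the replicate block, given here to set beside the 6 above.
Ddx58, chr4:40239802-40239835, minus strand: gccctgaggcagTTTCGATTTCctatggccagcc
Rsad2, chr12:26456551-26456584, minus strand: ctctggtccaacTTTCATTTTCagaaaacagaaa
Eif2ak2, chr17:78882533-78882566, minus strand: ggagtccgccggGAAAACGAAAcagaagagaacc
Trim21, chr7:102565442-102565481, minus strand: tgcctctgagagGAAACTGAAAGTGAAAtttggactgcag
Oas1a, chr5:120907518-120907557, minus strand: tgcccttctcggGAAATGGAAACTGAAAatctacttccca
Oas3, chr5:120777713-120777746, minus strand: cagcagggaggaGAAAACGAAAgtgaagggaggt
Trim30a, chr7:104465208-104465241, minus strand: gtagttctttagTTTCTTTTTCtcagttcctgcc

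Oas1a and Trim21 hold the overlapping triple repeat that Bst2 has. The matches began at -20 and -14 in Oas1a and at 14 and 20 in Trim21. The changes were 0.34 in Oas1a, 0.46 in Trim21 and 1.69 in Bst2. Of the 7, Ddx58, Rsad2, Eif2ak2 and Trim21 passed with the replicate block and Oas1a, Oas3 and Trim30a did not. Ifit2, Ifitm1, Oasl2, Parp12, Trim25 and Samd9l rose with no match in their windows, which says only that these letters are not there. The match was therefore present on both sides of the call, and no binding was measured.

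Among the sensors, Ifih1 (MDA5), which detects long double-stranded RNA in the cytosol, rose. Its values (log2, RMA) were 5.97, 5.99 and 5.98 in dark adapted and 7.03, 7.17 and 7.30 in light damaged retinas. The dark adapted arrays lay almost on top of each other and the groups did not overlap. The rise was 2.28-fold (log2 change 1.19 ± 0.13, SE, adjusted p = 0.0029). Ddx58 (RIG-I), which detects RNA with uncapped ends, read 6.74, 7.10 and 7.24 against 7.57, 7.80 and 7.96. These groups did not overlap either, but the arrays of each group spread more, and the change of 0.75 ± 0.17 had an adjusted p of 0.0817, and 0.00199 with the replicate block. With its probe sets averaged the change was 0.36 (adjusted p = 0.258). Dhx58 (LGP2), the regulator of both, read 5.85, 5.89 and 6.60 against 5.86, 5.84 and 5.83. A single dark adapted array, replicate 3, stood above the other 5, and the change was -0.27 (adjusted p = 0.773). Zbp1, a sensor of Z-form nucleic acid that can start necroptosis, changed by -0.13 (adjusted p = 0.926).

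Of the effectors that act on double-stranded RNA, Oasl2 was the 1 of 7 that rose. It read 5.25, 5.51 and 5.60 in dark adapted and 7.92, 7.73 and 7.28 in light damaged retinas. The lowest light damaged array was 1.68 log2 units above the highest dark adapted one, both numbered 3, and arrays of the same number differed by 2.67, 2.22 and 1.68. The change was 2.19 ± 0.19 (SE, adjusted p = 0.00133). The true oligoadenylate synthetases, which make the signal that activates the RNA-degrading enzyme RNase L, gave small changes. Oas1a read 7.39, 7.49 and 7.53 against 7.77, 7.70 and 7.94, with no overlap and a change of 0.34 (95% interval 0.04 to 0.63, adjusted p = 0.357). Oas2 and Oas3 changed by -0.01 (-0.29 to 0.26) and -0.03 (-0.31 to 0.24), and Oasl1, the neighbour of Oasl2 on chromosome 5, by 0.06 (-0.22 to 0.34). All of these intervals end below the interval of Oasl2, 1.75 to 2.62.

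Eif2ak2 (PKR), the kinase that stops translation when it binds double-stranded RNA, read 6.55, 6.39 and 6.04 against 6.85, 6.79 and 7.21. The groups lay apart, by the widest margin in the pair numbered 3 (1.18), and the change of 0.62 passed only with the replicate block (adjusted p = 0.171 and 0.047). Adar, which edits adenosine to inosine in double-stranded RNA, changed by 0.10 on its brightest probe set (adjusted p = 0.906).

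All 3 members of the IFIT family rose. Ifit1 read 5.05, 5.10 and 5.40 in dark adapted and 7.46, 6.77 and 7.26 in light damaged retinas. Ifit2, a relative that restricts virus replication, read 5.86, 5.73 and 5.47 against 7.54, 7.60 and 7.41. Both pairs of groups were more than 1 log2 unit apart, with changes of 1.98 ± 0.20 and 1.83 ± 0.15 (SE, adjusted p = 0.00244 and 0.00103). Ifit3, which stabilises the family's complex, read 6.73, 7.17 and 7.05 against 7.73, 8.09 and 8.11, a smaller 1.99-fold rise (adjusted p = 0.0255) that was even across the same-numbered pairs (1.00, 0.92 and 1.06). Ifit3 lost the call without dark adapted replicate 2 or 3 (adjusted p = 0.0599 and 0.0539), without light damaged replicate 2 or 3 (0.121 and 0.139), after quantile normalization was applied again (0.0537) and with arrays centred on reference genes (0.147).

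The genes of membrane proteins that act on virus entry and release held 4 of the 15 rises. Ifitm3 read 8.85, 8.23 and 8.22 in dark adapted and 10.81, 10.94 and 10.58 in light damaged retinas. Ifitm1, which acts at the cell surface, read 6.96, 6.74 and 6.81 against 8.81, 8.95 and 9.13. In both, every light damaged array stood over 1.7 log2 units above every dark adapted one, and the changes were 2.34 ± 0.20 and 2.13 ± 0.14 (SE, adjusted p = 0.00126 and 0.000757). Ifitm2 read 6.94, 6.84 and 7.15 against 7.95, 8.27 and 8.64, a 2.48-fold rise (adjusted p = 0.0122). Its call was lost without dark adapted replicate 2 (0.0652), without light damaged replicate 2 (0.0587) and with arrays centred on reference genes (0.0624). Ifitm2 and Ifitm3 are close copies, and cross-hybridisation between their probe sets was not tested.

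Bst2 (tetherin), which holds budding virus at the cell surface, read 5.66, 5.79 and 5.73 against 7.14, 7.61 and 7.51. The dark adapted arrays were tight and the groups far apart (3.23-fold, adjusted p = 0.0015). Rsad2 (viperin), which makes a chain-terminating nucleotide, read 6.44, 6.90 and 6.55 against 7.11, 7.31 and 7.19, and Mx2, a dynamin-like GTPase, read 6.80, 6.70 and 6.91 against 7.26, 7.003 and 7.40. Neither overlapped between groups, and their changes of 0.57 and 0.42 passed with the replicate block only (adjusted p = 0.143 and 0.293, and 0.0112 and 0.0397 with the block). With probe sets averaged the change of Rsad2 was 0.33. Mx1, whose protein is defective in many laboratory strains, changed by 0.09 (adjusted p = 0.947) at values below the lower quartile of every array, where RMA values carry little information on level.

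**Figure D2:**
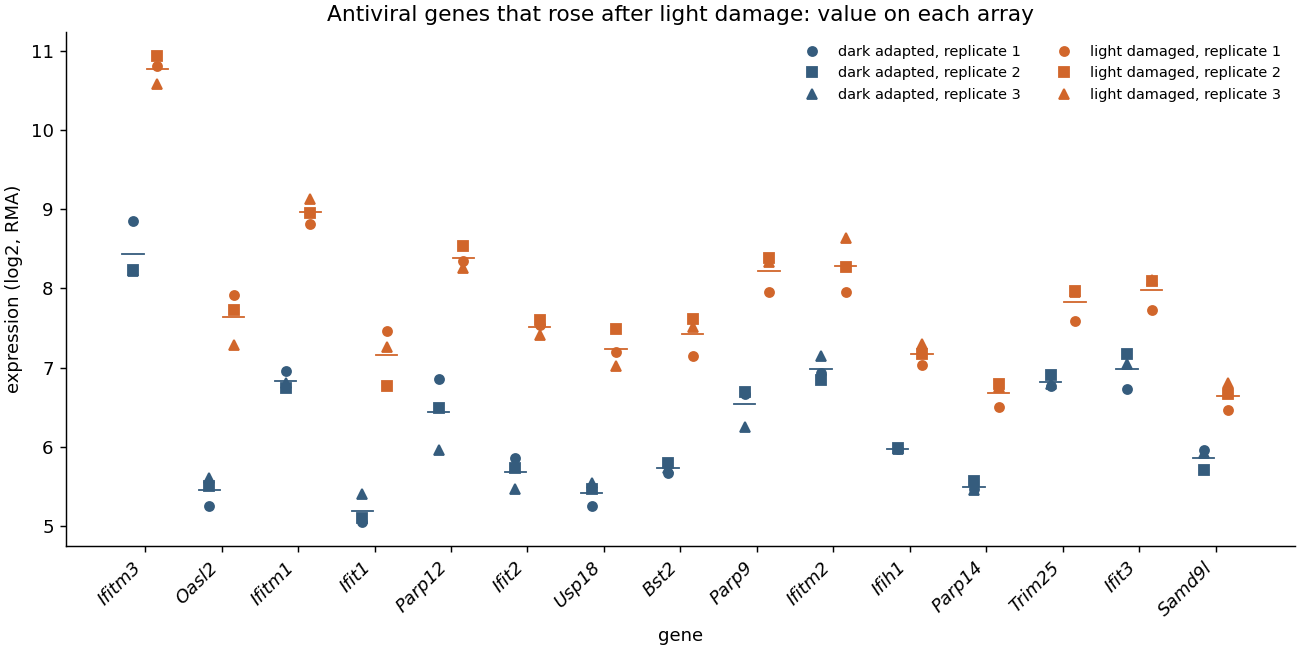
Expression (log2, RMA; vertical axis) of the 15 members that rose, ordered by change (horizontal axis), with 1 point per array, dark adapted in blue and light damaged in orange, a marker shape per replicate number and a line at each group's mean. In each gene the orange points lie above the blue ones, from Ifitm3 with means of 8.43 and 10.77 to Samd9l with means of 5.86 and 6.64.

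The ISG15 system attaches the ubiquitin-like protein ISG15 to other proteins, and 2 of its 4 measured genes rose. Usp18, which removes ISG15 and also damps the interferon receptor, read 5.25, 5.47 and 5.54 in dark adapted and 7.20, 7.49 and 7.02 in light damaged retinas. Trim25, a ubiquitin ligase that acts on RIG-I, read 6.77, 6.90 and 6.79 against 7.59, 7.96 and 7.95. Both were clearly apart between groups, with folds of 3.52 and 2.02 (adjusted p = 0.00138 and 0.0115). Trim25 lost the call without light damaged replicate 2 or 3 (0.0665 and 0.0733) and with arrays centred on reference genes (0.106). The conjugating enzyme gene Ube2l6 read 4.39, 4.38 and 4.29 against 4.41, 4.38 and 4.38, below every array's lower quartile, with a change of 0.03.

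Herc6, the main ISG15 ligase of mice, depended on the probe set. The brightest read 7.82, 8.60 and 9.12 in dark adapted and 8.21, 8.77 and 8.17 in light damaged retinas, which overlap widely, with a change of -0.13 (adjusted p = 0.959). Another read 4.77, 4.71 and 5.38 against 5.92, 6.05 and 5.89, with no overlap and a change of 1.00. In 1 fit over all 34945 probe sets of a single gene this had an adjusted p of 0.0625, and 0.0118 with the replicate block, and the remaining 2 probe sets changed by 0.61 and 0.52. In that fit 1.13% of probe sets were called higher, and 4.58% with the block. Of the 9 members gained with the block, Eif2ak2, Mx2 and Trim21 did not pass in the blocked fit over probe sets (adjusted p = 0.0836, 0.0571 and 0.0589 for the chosen probe set).

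Several other members were read differently by their probe sets. Of the 18 members with more than 1, Dhx58, Herc6, Xaf1 and Zbp1 had changes of both signs. In Adar the brightest probe set changed by 0.10 while the other 2 changed by 0.71 and 0.58 (adjusted p = 0.403 and 0.289 over all probe sets, and 0.0387 and 0.0597 with the block). In Parp14 the chosen probe set changed by 1.19 and the dimmer one by 0.14, and in Rtp4 by 1.34 and 0.21. In Ddx58 the chosen probe set changed by 0.75 and the others by 0.10 and 0.22, in Rsad2 by 0.57 against 0.06 and 0.36, and in Trim25 by 1.01 against 0.98 and 0.27. Averaging the probe sets brought the change of Parp14 to 0.66 (adjusted p = 0.0377) and that of Rtp4 to 0.77. The probe sets of Ifi35, Dtx3l, Eif2ak2, Ifi27 and Trim21 gave nearly the same change. Which transcripts each probe set detects was not analysed here. Taking the mean of a gene's probe sets called 16 members, with Ifi35 added (adjusted p = 0.0465).

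**Figure D3:**
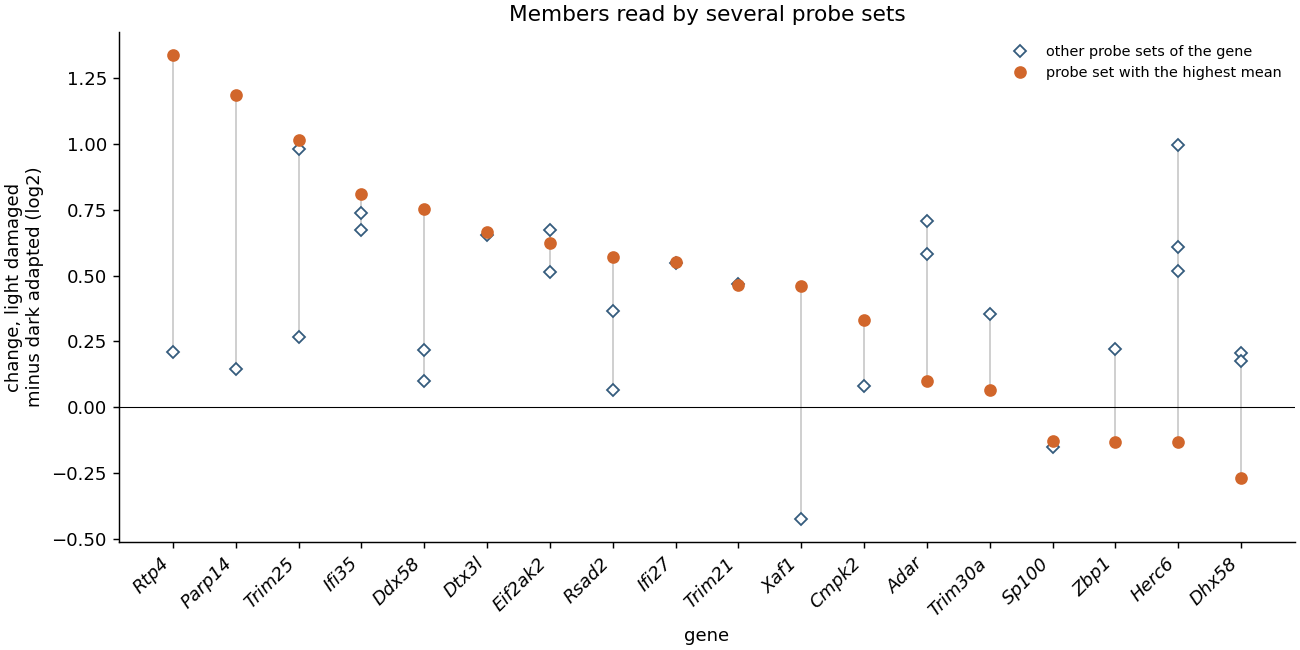
Log2 change of light damaged minus dark adapted retinas (vertical axis) for each probe set of the 18 members with several (horizontal axis), the one with the highest mean as an orange disc and the others as open diamonds, joined by a grey line. Herc6 spans -0.13 to 1.00 and Xaf1 -0.42 to 0.46, while Ifi27 and Trim21 show discs and diamonds at nearly the same height.

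Genes for ADP-ribosylation and ubiquitin enzymes of the antiviral response rose in 3 of 6 cases, all of them ADP-ribosyltransferase (Parp) genes. Parp12 read 6.85, 6.49 and 5.96 in dark adapted and 8.34, 8.54 and 8.26 in light damaged retinas. Parp9 read 6.66, 6.69 and 6.25 against 7.95, 8.39 and 8.33. In both the lowest dark adapted array was replicate 3, the groups did not overlap, and the changes were 1.94 ± 0.22 and 1.69 ± 0.18 (SE, adjusted p = 0.00409 and 0.00283). Parp14 read 5.46, 5.57 and 5.46 against 6.50, 6.79 and 6.76, a 2.27-fold rise (adjusted p = 0.00378).

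Dtx3l, the ubiquitin ligase that pairs with PARP9 and lies beside its gene on chromosome 16, read 6.18, 6.33 and 6.81 against 6.81, 7.17 and 7.34. The highest dark adapted and the lowest light damaged array met at 6.81, and the change of 0.67 was smaller than that of Parp9 and passed with the replicate block only (adjusted p = 0.212 and 0.00565). Trim21, the cytosolic antibody receptor and ubiquitin ligase, read 6.52, 6.46 and 6.82 against 6.77, 6.94 and 7.48. Here 1 dark adapted array overlapped with the light damaged ones, and the change of 0.46 had an adjusted p of 0.459, and 0.0379 with the block. Trim30a, a relative that damps inflammatory signalling, changed by 0.07 (adjusted p = 0.968).

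Among the remaining 9 measured members 1 rose. Samd9l, a restriction factor that blocks translation, read 5.96, 5.70 and 5.92 in dark adapted and 6.47, 6.66 and 6.80 in light damaged retinas. The groups were apart by 0.50 log2 units between their nearest arrays, the smallest gap among the 15 that rose, and the adjusted p was 0.0347 for a 1.72-fold rise. The call held without dark adapted replicate 1 and was lost without each of the other 5 arrays (adjusted p from 0.0638 to 0.163) and with arrays centred on reference genes (0.160). It was also lost in the fit over all probe sets of a single gene (0.0509).

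Rtp4, which encodes a receptor chaperone induced by interferon, read 6.10, 6.25 and 7.46 against 7.76, 8.08 and 7.98. Dark adapted replicate 3 stood more than 1 log2 unit above the other 2 of its group. The change of 1.34 ± 0.33 did not pass (adjusted p = 0.098), but it was 1.76 with an adjusted p of 0.00326 without that array, and 0.00498 with all arrays and the replicate block. Ifi35, a partner of the interferon-induced protein NMI, read 6.79, 7.17 and 7.15 against 7.81, 8.24 and 7.49. The groups lay apart, and the change of 0.81 passed with the block only (adjusted p = 0.116 and 0.00935). Ifi27 changed by 0.55 (adjusted p = 0.212, and 0.0243 with the block).

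The changes of the last members were small or varied between arrays. Xaf1, which binds the apoptosis inhibitor XIAP, changed by 0.46, and Cmpk2, a mitochondrial nucleotide kinase beside Rsad2 on chromosome 12, by 0.33 (adjusted p = 0.624 and 0.575). Ifi47, an immunity-related GTPase, changed by 0.25, the exonuclease gene Isg20 by 0.08 and the nuclear body gene Sp100 by -0.13 (adjusted p = 0.794, 0.934 and 0.866). With arrays centred on reference genes the changes of Ifi47 and Isg20 turned negative (-0.08 and -0.25).

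**Figure D4:**
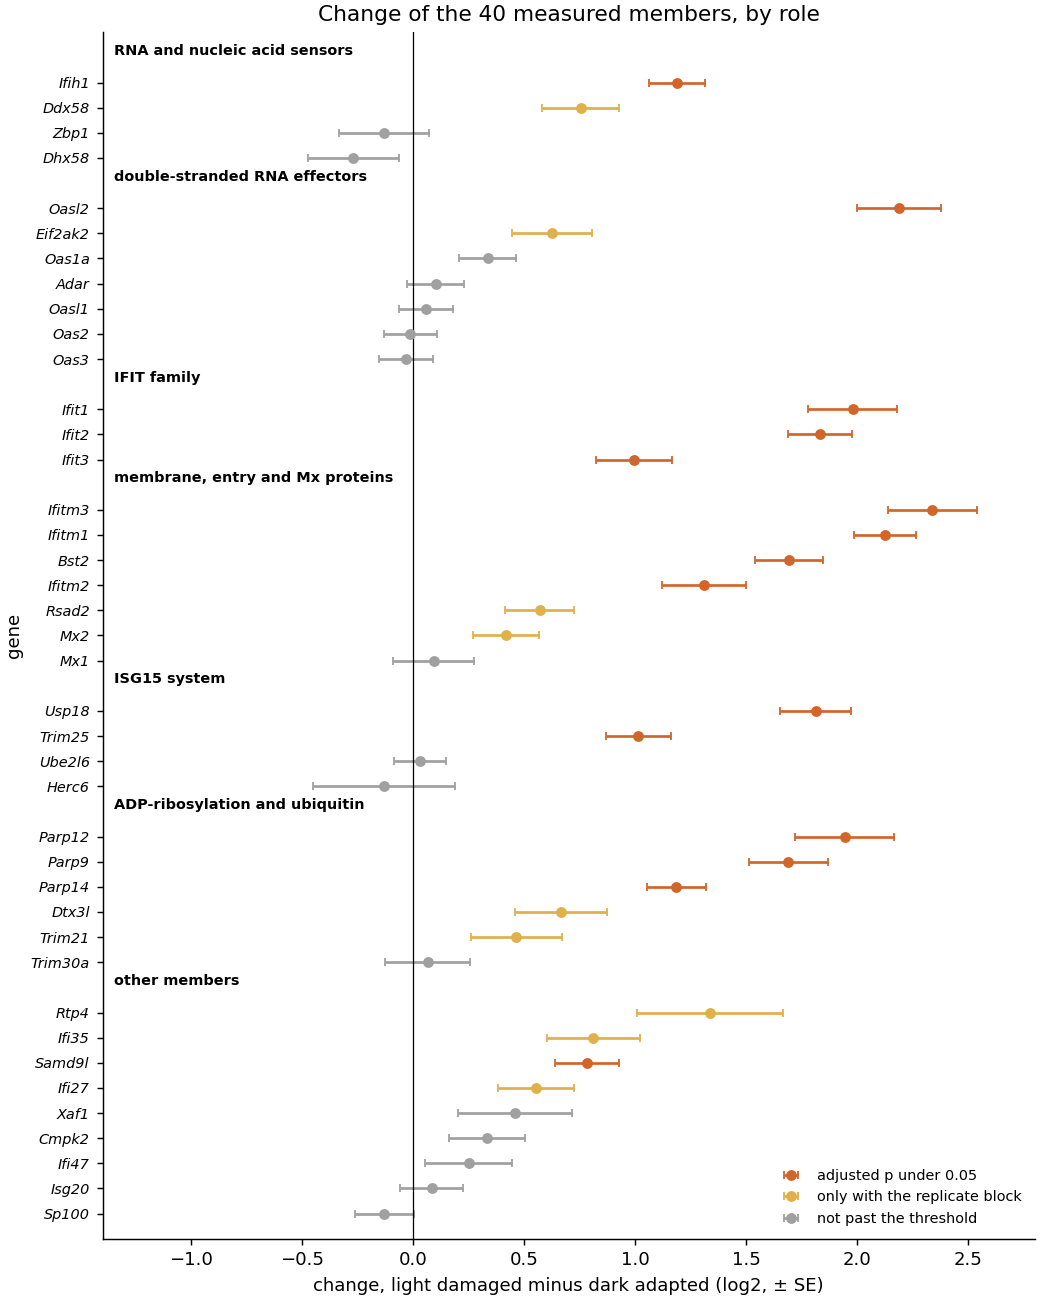
Log2 change of light damaged minus dark adapted retinas with its standard error (horizontal axis) for each of the 40 measured members, grouped by role (vertical axis), with colour showing whether the gene passed at an adjusted p under 0.05, only with the replicate block, or not. Genes that passed lie between 0.78 and 2.34, and 2 genes that passed only with the block, Rtp4 at 1.34 and Ifi35 at 0.81, lie among them.

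Members that lie side by side on a chromosome did not always move alike. Ifit2, Ifit3 and Ifit1 on chromosome 19 all rose, as did Ifitm2, Ifitm1 and Ifitm3 on chromosome 7. On chromosome 5, Oasl2 rose by 2.19 and its neighbour Oasl1 read 0.06, and of the nearby group of Oas2, Oas3 and Oas1a none passed. On chromosome 16, Parp14 and Parp9 rose and Dtx3l between them passed with the replicate block only.

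The dark adapted arrays were not alike for these genes. Replicate 3 was the highest of the 3 dark adapted arrays in 19 of the 40 members (47.5%), while over all genes it was the highest in 25.9%. Among the 25 members that did not pass it was highest in 15, which follows in part from the choice, since a high dark adapted array lowers the chance of a call. The mean level of the 15 that rose was nearly equal on the dark adapted arrays (6.28, 6.26 and 6.22) and on the light damaged ones (7.76, 7.93 and 7.89). This evenness too follows in part from the choice, since a small spread within a group favours a call. The mean of the other 25 ran from 6.28 to 6.61 and from 6.63 to 6.79.

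Of 39 measured genes that act before the members in the pathway 5 rose (12.8%) and 0 fell. Usp18, itself a member and one of the 15 above, is 1 of these 5. Of 10 measured interferon genes, the ligands, 0 passed in either direction in limma, 0 had an unadjusted p under 0.05 and 0 passed with the replicate block. Over all genes 2002 of 18193 had an unadjusted p under 0.05 in limma, so few would be reached in a list this short. The ligands' changes ran from -0.24 to 0.10, and the 95% intervals for Ifnb1 and Ifng, the best known type I and type II ligands, were -0.83 to 0.42 and -0.35 to 0.42. Ifng and 2 others, Ifna11 and Ifnab, were below the lower quartile of every array, where values carry little information on level. Ifna2 had the smallest p among them and read 5.98, 5.85 and 6.29 against 5.90, 5.76 and 5.74 (adjusted p = 0.685). Of 6 receptor genes 0 passed, with 2 at an unadjusted p under 0.05. Ifnar2, a chain of the type I receptor, read 6.35, 6.07 and 6.29 against 7.02, 6.67 and 7.16, with no overlap and a change of 0.72 (adjusted p = 0.0785, and 0.00352 with the block), or 0.44 with its probe sets averaged (adjusted p = 0.292).

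Of 5 measured genes for signal transduction 2 rose. Irf9, the DNA-binding partner of the STAT proteins, read 6.55, 6.28 and 6.70 in dark adapted and 8.39, 8.27 and 8.46 in light damaged retinas. Stat2 read 7.27, 7.03 and 6.92 against 8.54, 8.79 and 8.65. Both were far apart between groups (3.64-fold and 3.00-fold, adjusted p = 0.00103 and 0.0015), and both are themselves known to be induced by interferon. The kinase genes Jak1, Jak2 and Tyk2 changed by 0.15, 0.01 and 0.17. Of 11 genes that lead from sensors to interferon production 1 rose and 3 did with the block (27.3%, against 6.73% of all genes higher). It was Irf7, which drives interferon gene transcription and read 7.59, 6.93 and 7.55 against 8.50, 8.40 and 8.43 (2.12-fold, adjusted p = 0.0279). Irf7 lost the call without light damaged replicate 1, 2 or 3 (0.108, 0.104 and 0.137) and with arrays centred on reference genes (0.0842).

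Of 7 inhibitor genes 2 rose, Usp18 and Socs3. Socs3, a feedback inhibitor induced mainly by cytokines of the interleukin 6 family, read 6.87, 7.21 and 6.78 against 9.26, 9.23 and 9.43 (5.10-fold, adjusted p = 0.000757). Its close relative Socs1, which restrains interferon receptors, changed by 0.28 (adjusted p = 0.713).

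A further list holds interferon-stimulated genes outside the 43, and its genes gave smaller counts. Among its 38 measured genes were 4 that rose (10.5%) and 0 that fell, and the median change was 0.14. With the replicate block 11 rose (28.9%) and 2 fell, against 6.73% of all genes higher and 2.13% lower. Lgals3bp, a secreted galectin-binding protein, read 6.99, 7.17 and 7.56 against 8.21, 8.41 and 8.13. Nmi read 5.65, 5.87 and 5.80 against 6.44, 6.88 and 6.64, and Shisa5 8.999, 9.01 and 8.81 against 9.88, 10.09 and 9.52. The groups of all 3 were apart, with folds of 2.01, 1.84 and 1.86 (adjusted p = 0.0265, 0.0262 and 0.0393). Pml, the scaffold of nuclear bodies that also hold Sp100, was the fourth gene (0.73, adjusted p = 0.0347). The list's count fell to 0 or 1 when any array but dark adapted replicate 1 was left out, and with arrays centred on reference genes 0 rose and 1 fell. Whether the 2 lists differ was not tested.

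**Figure D5:**
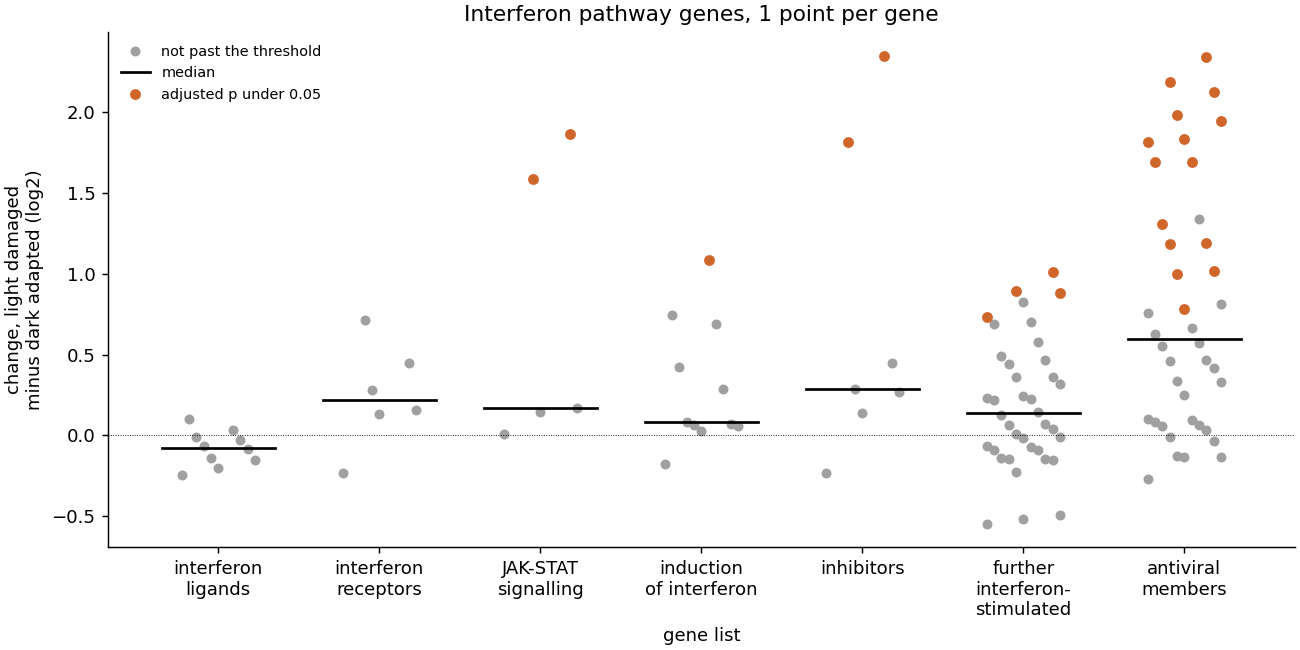
Log2 change of light damaged minus dark adapted retinas (vertical axis), 1 point per gene, in lists of interferon pathway genes and in the 40 antiviral members (horizontal axis), with genes at an adjusted p under 0.05 in orange and the median of each list as a bar. The 10 ligands lie between -0.24 and 0.10, while the members reach 2.34.

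Markers of cell types were measured beside these genes. A bulk array cannot tell fewer cells of a type from less RNA per cell. None of 9 microglia markers passed, 1 was lower with the replicate block (P2ry12, -0.48), and their summed linear level lay between 783 and 920 in dark adapted and 801 and 809 in light damaged retinas. None of 5 monocyte, 6 neutrophil, 8 lymphocyte or 3 erythrocyte markers passed, with or without the block, and their summed levels overlapped between groups; the members of these lists with the largest changes were Ccr2 (-0.49), Mpo (-0.18), Cd3g (-0.25) and Hba-a2 (0.33). Of 3 genes listed as astrocyte markers Slc14a1 and Gfap rose (2.17 and 1.75), and of 8 Müller glia markers Vim rose (1.67). Whether astrocytes or Müller glia held this RNA was not measured. With the block 3 Müller glia markers were higher, Vim, Kcnj10 (0.77) and Slc1a3 (0.66), and 2 lower, Glul (-0.99) and Rlbp1 (-0.50). Over all genes 6.73% were higher and 2.13% lower with the block. The Müller glia sum lay between 11009 and 13614 in dark adapted and 11239 and 14127 in light damaged retinas, and the astrocyte sum between 2694 and 4002 and between 3216 and 4189. Within the Müller glia sum Glul had means of 12.02 and 11.03 and Vim 10.34 and 12.01, so they moved in opposite directions. Aldoc, the brightest astrocyte marker (means 11.64 and 11.52, change -0.11), made up most of the astrocyte sum. The mean log2 value of the 3 astrocyte markers ran from 8.04 to 8.27 and from 9.23 to 9.66, with no overlap. The 6 endothelial markers summed to between 1125 and 1340 and to between 1579 and 1671, with no overlap. None of them passed, and 1 did with the block (Kdr, 0.44). Kdr, the brightest (means 9.84 and 10.28), made up most of that sum. Pecam1 and Cldn5 changed by 0.27 and 0.25, and Cdh5, Tek and Tie1 by 0.02, -0.04 and -0.09. The mean log2 value of the 6 ran from 6.28 to 6.38 and from 6.44 to 6.51, also with no overlap. Each rod marker but Prph2, with a dark adapted mean of 7.35, had a mean above the upper quartile of the arrays. Of these 8 markers 1 fell (Nrl, -1.04), 5 did with the block, and each of the 8 changes was negative. Their sum went from between 41389 and 51926 to between 30456 and 38263. Of 6 pigment epithelium and 6 lens markers 0 passed, and with the block 1 (Ttr, 0.99) was higher and 2 lens markers, among them Bfsp1 (-1.12), were lower. Bfsp1 ran from 7.30 to 9.84 within the dark adapted group and from 6.07 to 8.69 within the light damaged group. In both it increased with the replicate number. The lens sum lay between 13607 and 29983 in dark adapted and 14894 and 28461 in light damaged retinas. The part of endothelial, glial, rod and other RNA in the members' changes was not tested.

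Scaling shifted the balance of calls over all genes. As deposited, 316 genes were higher and 49 lower. Quantile normalization applied again gave 327 and 162, and centring each array on 6 reference genes gave 138 and 288, since the mean change of those genes was 0.33, with Rplp0 the largest (1.20, adjusted p = 0.00441). That centring moved the median of all genes from 0.03 to -0.30. Under it 11 of the 15 members stayed higher and 0 members were lower, and the members' median was 0.26.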

How the data were processed

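Retinal RNA was measured on Affymetrix arrays, 3 per group by the sample titles. The authors deposited log2 expression values made with RMA, per the submitters' processing notes (no version is given in the sources used here), and the log2 scale was judged from their range. RMA scales arrays to each other, so a change in total RNA would not be seen; array medians were 6.15 to 6.18, while upper quartiles still ran from 7.41 to 7.67. No detection calls were used, and 3 arrays a group limit the precision.

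Of 45101 probe sets, 64 were controls, and GEO's annotation of the platform gave 34945 a single gene, 932 several and 9160 none. RefSeq (GRCm38.p6) held 34741 of the 34945 by Entrez identifier and changed 0 symbols. Each gene was read by its probe set of highest mean, with no filter on level. The test was limma 3.58.1 (lmFit and eBayes, R 4.3.3), with p-values adjusted over the 18193 genes by Benjamini and Hochberg's method and called under 0.05. Changes are light damaged minus dark adapted, and intervals are 95% from the moderated fit. Marker sums are of values taken back from log2. The fit was run on simulated data in which the arrays were drawn independently. Such data lack the shared deviations of same-numbered arrays, so they do not check the calls made here.

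Deviations from group means correlated between arrays of the same number (0.732, 0.618 and 0.432), and the numbers were treated as pairing the arrays, which rests on the data since no label says so. Median standard errors were 0.162 without and 0.112 with the replicate block.

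All measured members are named; those that passed, and up to 2 per role that did not, have every array's value. In the pathway lists up to 3 passing genes, or the 1 with the smallest p, are described, and 1 gene per cell type list. Values outside this rule were chosen after their values were seen. They are Jak1, Jak2, Tyk2, Socs1, Ifnb1, Ifng, Pml, Gfap, Aldoc, Glul, Rlbp1, Kcnj10, Slc1a3, Prph2 and the endothelial markers other than Kdr. The probe sets of Herc6, Adar, Parp14, Rtp4, Ddx58, Rsad2 and Trim25 were also chosen so. The members and lists were chosen with earlier results of these data known.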

Additional observations from a re-analysis of the deposited data

How the results depend on the processing

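Alternatives were the replicate block, quantile normalization again, centring on reference genes, the mean of a gene's probe sets, leaving out probe sets with the suffix x, s or a, leaving out dim genes, a variance trend and leaving out each array. The fit over every probe set and the fit without pair 3 were added after seeing the data. Over all genes the count of 365 became 1613 with the replicate block, 151 to 417 with 1 array left out and 65 without pair 3, which leaves 2 arrays a group. The members' count of 15 became 24 with the replicate block, 7 without pair 3, and 11 to 15 with 1 array left out, and was within 1.5 times of 15 under the other alternatives. The members' median change of 0.60 became 0.26 with reference centring, 0.68 without pair 3 and 0.51 to 0.68 with 1 array left out. The further interferon-stimulated genes called (4) became 13 with the replicate block, 1 with reference centring, 2 without suffixed probe sets, 0 without pair 3 and 0 to 4 with 1 array left out. The upstream genes called (5) became 9 with the replicate block, 3 without suffixed probe sets (29 of 39 tested), 3 without pair 3 and 4 to 5 with 1 array left out. Changes that turned sign were all of members that had not passed. With reference centring these were Isg20 (-0.25), Oasl1 (-0.28), Mx1 (-0.24), Adar (-0.23), Trim30a (-0.27), Cmpk2 (-0.00083), Ube2l6 (-0.30) and Ifi47 (-0.084). Adar was -0.061 after quantile normalization. With the mean of probe sets Dhx58 was 0.037, Zbp1 0.045 and Herc6 0.50, and Herc6 was 1.00 without suffixed probe sets. Without pair 3 Oas3 was 0.014, Mx1 -0.12 and Herc6 0.28. With 1 array left out Oas2 ran from -0.058 to 0.030, Mx1 from -0.11 to 0.21, Trim30a from -0.057 to 0.28, Zbp1 from -0.27 to 0.064 and Herc6 from -0.48 to 0.17. The causes were not tested.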
